A study of Mus musculus with 19 samples.

Results

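The genes followed here mark Kupffer cells and other macrophages in mouse liver: C1qa, C1qb, C1qc, Clec4f, Cd5l, Adgre1, Marco, Vsig4, Cd68 and Timd4. They were chosen by symbol and make up 10 of the 24421 gene symbols with read counts. All 10 passed the filter on low counts, with 13 to 3473 reads per gene and library. Liver RNA was sequenced in 19 libraries from mice on a purified normal diet, injected 2 times a week for 3 weeks with an ASO, an antisense oligonucleotide that pairs with a chosen RNA and lowers it, either a control or one against Plin5, which encodes the lipid droplet protein perilipin 5. Livers were collected after an overnight fast, or after the fast and 4 h of re-feeding, which gave 4 groups: fasted control ASO (n = 4, numbered 1, 3, 4 and 5), fasted PLIN5 ASO (n = 5), re-fed control ASO (n = 5) and re-fed PLIN5 ASO (n = 5). No group went without an ASO, and the labels name a single ASO against Plin5, so that lower Plin5 and other effects of that oligonucleotide cannot be told apart. The sources used here give no strain, sex or age. The labels do not say that libraries of a group come from separate animals, so p-values measure the spread between libraries.

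Kupffer cells are the resident macrophages of the liver sinusoid, where they take up particles, aged red cells, lipoproteins and complement-coated microbes from portal blood. They settle before birth and largely renew on their own, and signals from neighbouring endothelial and stellate cells keep up their gene programme. The C1q protein, assembled from A, B and C chains, starts the classical complement pathway and binds dying cells, and macrophages are a main source of it. In RNA from whole liver, fewer cells of a type and less RNA per cell cannot be told apart.

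C1qa, C1qb and C1qc lay side by side on the minus strand of chromosome 4 (GRCm38), each with 3 exons in its longest transcript. C1qb was at 136880129 to 136886187, C1qc at 136889804 to 136893065 and C1qa at 136895917 to 136898803, a stretch of 18675 bases that held no other annotated gene. The other 7 genes lay on chromosomes 1 (Marco), 3 (Cd5l), 6 (Clec4f), 11 (Cd68 and Timd4), 17 (Adgre1) and X (Vsig4). RefSeq (GRCm38.p6) promoter windows, from 250 bases before to 50 after the start of the gene, were at hand for 8 of the 10. Below are those of C1qb and C1qc, neighbours with much the same levels, of Clec4f, which had the smallest fold change in fasted liver, and of Marco, whose fold range between libraries was the widest. They are C1qb at chr4:136886151-136886450, C1qc at chr4:136892865-136893164, Clec4f at chr6:83656067-83656366 and Marco at chr1:120504975-120505274, all on the minus strand. Capitals mark GAGGAA, a core bound by the macrophage factors PU.1 and SpiC, or its reverse complement.
C1qb: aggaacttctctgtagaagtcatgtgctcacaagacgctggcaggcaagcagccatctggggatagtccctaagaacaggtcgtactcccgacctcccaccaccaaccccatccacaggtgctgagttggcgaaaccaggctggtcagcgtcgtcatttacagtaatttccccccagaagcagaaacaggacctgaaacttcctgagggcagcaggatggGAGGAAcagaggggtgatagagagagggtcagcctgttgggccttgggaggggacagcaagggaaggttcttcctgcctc
C1qc: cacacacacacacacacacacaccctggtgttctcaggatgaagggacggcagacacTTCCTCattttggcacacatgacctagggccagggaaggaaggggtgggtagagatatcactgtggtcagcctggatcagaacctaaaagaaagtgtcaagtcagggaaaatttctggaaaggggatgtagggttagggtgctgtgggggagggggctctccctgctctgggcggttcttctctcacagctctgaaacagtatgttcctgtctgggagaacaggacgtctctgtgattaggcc
Clec4f: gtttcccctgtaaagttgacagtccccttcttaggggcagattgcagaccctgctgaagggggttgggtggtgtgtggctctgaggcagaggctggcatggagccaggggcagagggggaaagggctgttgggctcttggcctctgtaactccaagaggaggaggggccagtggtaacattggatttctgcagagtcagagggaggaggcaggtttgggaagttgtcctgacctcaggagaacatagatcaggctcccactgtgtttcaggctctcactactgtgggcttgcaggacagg
Marco: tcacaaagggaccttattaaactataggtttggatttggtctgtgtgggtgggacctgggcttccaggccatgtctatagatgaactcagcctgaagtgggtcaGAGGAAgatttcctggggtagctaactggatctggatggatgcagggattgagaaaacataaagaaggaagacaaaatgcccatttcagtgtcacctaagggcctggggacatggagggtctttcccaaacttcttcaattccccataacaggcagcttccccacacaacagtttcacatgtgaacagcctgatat

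The core began 30 bases before the start in C1qb, 193 before it on the opposite strand in C1qc and 146 before it in Marco, and the Clec4f window held none. Counting both strands, GAGGAA stood in 6 of the 8 member windows (C1qb, C1qc, Cd5l, Cd68, Marco and Vsig4), against 28.3% of all 32851 windows. The partial Maf site TGCTGA stood in 5 of 8 (C1qb, Cd5l, Clec4f, Timd4 and Vsig4) against 19.5%. The interferon regulatory factor motif, GAAA repeated after any 2 bases, and the LXR direct repeat, AGGTCA repeated after any 4 bases, stood in 0 of 8, against 3.44% and 0.0152%. No matches in the member windows shared a base. A match is a run of letters and does not show binding.

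Depth ran from 24.9 to 33.9 times 1e6 counts in 18 libraries and reached 66.9 times 1e6 in re-fed PLIN5 ASO 5. Plin5 stood at 3.91 to 13.1 CPM (counts scaled to 1e6 per library) in the 10 PLIN5 ASO libraries and 27.3 to 51.8 CPM in the 9 control ASO libraries. As a check of the liver label, 9 hepatocyte markers summed to 89841 to 151743 CPM per library. Arntl, a core clock gene, reached 14.6 to 45.0 CPM in fasted PLIN5 ASO 3 and 5 and in re-fed control ASO 3 and 5, and at most 4.87 CPM in the other 15 libraries. These 4 are called the high-Arntl libraries. Fasted control ASO 3 and 4 differed less than any other of 36 within-group pairs (chi-square per degree of freedom 3.27, next 19.5). The main counts, medians and list calls are also given without the high-Arntl libraries or with that pair as 1 sample.

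Per transcript length, the C1q chains led the 10 markers. Over 19 libraries the deposited FPKM (fragments per kilobase and 1e6 mapped) averaged 36.4 ± 13.7 (SD, n = 19) for C1qa, 27.1 ± 11.3 for C1qb and 26.9 ± 10.6 for C1qc. Cd5l followed at 20.2 ± 8.08 FPKM and Clec4f at 15.9 ± 4.92 FPKM. Vsig4 stood at 8.31 ± 2.92, Cd68 at 5.47 ± 2.36, Marco at 1.34 ± 1.40, Adgre1 at 1.26 ± 0.59 and Timd4 at 0.89 ± 0.33 FPKM. Within each library the chains kept nearly fixed shares of summed C1q FPKM. C1qa held 37.6% to 45.4%, C1qb 26.0% to 33.6% and C1qc 26.4% to 32.9%.

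**Figure D1:**
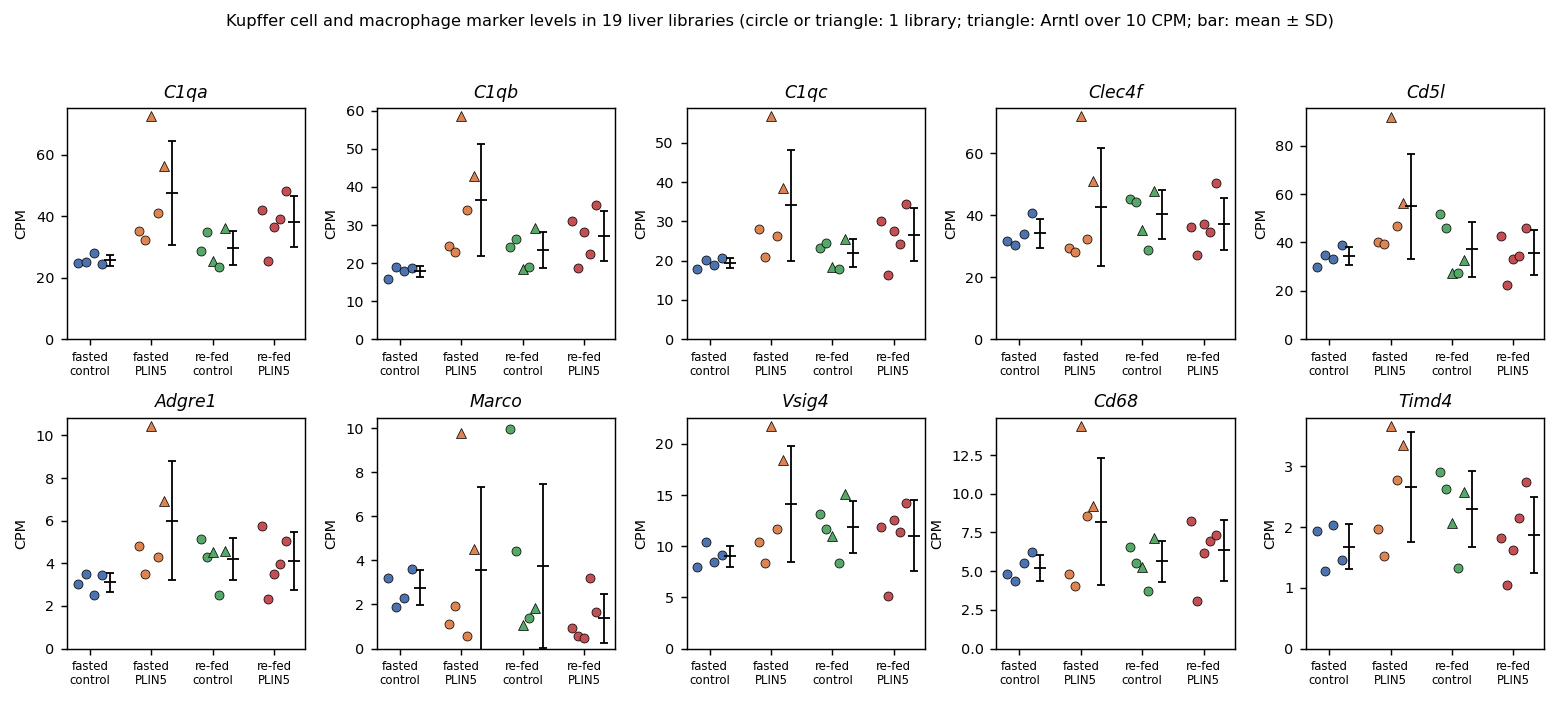
CPM of each marker in every library, by group (x axis), with mean ± SD beside the points and triangles for the 4 high-Arntl libraries. Fasted PLIN5 ASO 3 is the highest point of 9 of the 10 panels, and Marco has the widest range as a fold (21.2-fold), from 0.47 to 9.97 CPM.

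The comparison of PLIN5 ASO with control ASO in fasted liver asks what the oligonucleotide against Plin5 changed in the absence of food. C1qa and C1qb rose, and the other 8 markers had positive fold changes that did not pass the test. The fitted log2 fold changes of the 10 ran from 0.32 (Clec4f) to 1.03 (C1qb), with a median of 0.67 against 0.01 over all 13293 genes tested. Called up were 2 of 10 markers, where 1.17% of all genes were called and 0.602% were called up (edgeR's quasi-likelihood test, two-sided, Benjamini-Hochberg adjusted over all genes tested, threshold 0.05; written below as edgeR adjusted p). At an unadjusted p under 0.05 there were 7 of 10, against 15.1% of all genes. The markers varied together between libraries of a group, so such counts do not rest on separate observations.

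Of the secreted products, the C1q chains are given before Cd5l. C1qa, the A chain, stood at 24.8, 25.2, 28.1 and 24.3 CPM in the 4 fasted control ASO libraries and at 35.2, 32.3, 72.7, 41.1 and 56.4 CPM in the 5 fasted PLIN5 ASO libraries. Every PLIN5 ASO library lay above every control library, with libraries 3 and 5 far above the rest. The means were 47.5 ± 16.9 CPM (SD, n = 5) and 25.6 ± 1.69 CPM (SD, n = 4). The log2 fold change of C1qa was 0.89 (SE 0.21, 95% interval 0.45 to 1.34, edgeR adjusted p = 0.0424). C1qb, the B chain, stood at 15.8, 18.9, 18.0 and 18.8 CPM with control ASO and at 24.6, 22.9, 58.5, 34.0 and 43.0 CPM with PLIN5 ASO. Again all 5 lay above all 4. Its log2 fold change was 1.03 (SE 0.24, 95% interval 0.54 to 1.53, edgeR adjusted p = 0.0345). C1qc, the C chain, stood at 17.8, 20.2, 18.8 and 20.7 CPM against 28.1, 20.8, 56.8, 26.3 and 38.5 CPM. Its groups did not overlap either, though PLIN5 ASO 2 lay barely above the highest control. The log2 fold change of C1qc was 0.82 (SE 0.23, edgeR adjusted p = 0.0983).

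Both calls were fragile. With only the 2 fasted groups fitted, C1qa had an edgeR adjusted p of 0.0820 and C1qb of 0.0800, and 0 of 10 markers were called. The same count of 0 came with fasted control ASO 3 and 4 taken as 1 sample, without the high-Arntl libraries, without any single fasted control library, without fasted PLIN5 ASO 3, 4 or 5, and from the deposited FPKM with limma. Without the high-Arntl libraries the log2 fold changes were 0.50 for C1qa, 0.60 for C1qb and 0.37 for C1qc. DESeq2 called 4 of 10, adding C1qc and Adgre1, and 432 genes in all, where the main fit called 156. Without 1 fasted control library 22 to 46 genes were called, and with fasted control ASO 3 and 4 as 1 sample 33. Without fasted PLIN5 ASO 3, 4 or 5 the count over all genes was 43 to 102. Over 31 alternatives the adjusted p ran from 0.0025 to 0.191 for C1qa, which passed in 13, and from 0.00127 to 0.153 for C1qb, which passed in 17.

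Cd5l, which encodes a secreted macrophage protein that prolongs the survival of macrophages, stood at 30.0, 34.9, 33.3 and 38.8 CPM in fasted control ASO and at 40.1, 39.5, 91.9, 46.7 and 56.3 CPM in fasted PLIN5 ASO. Its groups did not overlap, and library 3 alone exceeded 60 CPM. The log2 fold change was 0.68 (SE 0.25, edgeR adjusted p = 0.196). Adgre1, which encodes the macrophage surface antigen F4/80, stood at 3.03, 3.48, 2.52 and 3.43 CPM against 4.79, 3.52, 10.4, 4.28 and 6.94 CPM. All 5 PLIN5 ASO libraries were higher, the lowest of them by little, and the log2 fold change was 0.94 (SE 0.30, edgeR adjusted p = 0.125). In all, 5 of 10 markers (C1qa, C1qb, C1qc, Cd5l and Adgre1) had every PLIN5 ASO library above every control, against 2.87% of all genes, and 0 of 10 had every PLIN5 ASO library below every control, against 4.26%. Here too the markers varied together and were not separate observations.

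Among receptors for uptake, Clec4f, a galactose-binding lectin found on Kupffer cells in mouse, stood at 31.6, 30.4, 34.1 and 40.9 CPM in fasted control ASO and at 29.6, 28, 72.2, 32.3 and 51.2 CPM in fasted PLIN5 ASO. PLIN5 ASO 1 and 2 lay below all controls and 3 and 5 above them, and the log2 fold change was 0.32 (SE 0.24, edgeR adjusted p = 0.578). Marco, a scavenger receptor for bacteria and particles, stood at 3.20, 1.89, 2.31 and 3.61 CPM against 1.10, 1.92, 9.77, 0.56 and 4.50 CPM. The PLIN5 ASO libraries lay on both sides of the controls, with a log2 fold change of 0.38 (SE 0.72, edgeR adjusted p = 0.858). Vsig4, a receptor for complement C3 fragments, ranged from 8.0 to 10.4 CPM with control ASO and from 8.37 to 21.7 CPM with PLIN5 ASO. Timd4, which binds phosphatidylserine on dying cells and marks long-resident Kupffer cells, ranged from 1.28 to 2.04 CPM and from 1.53 to 3.67 CPM. Cd68, a lysosomal glycoprotein of macrophages, ranged from 4.34 to 6.27 CPM and from 4.04 to 14.3 CPM. All 3 overlapped, with log2 fold changes of 0.65 (Vsig4), 0.66 (Timd4) and 0.65 (Cd68) and edgeR adjusted p of 0.259, 0.291 and 0.335.

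Most of the spread in fasted PLIN5 ASO came from libraries 3 and 5. Library 3 had the highest level of all 19 for 9 of the 10 markers, and library 5 the second highest for the same 9. For Marco they ranked 2 and 3, behind re-fed control ASO 1 at 9.97 CPM. Both are high-Arntl libraries. The other high-Arntl libraries, re-fed control ASO 3 and 5, summed to 149 and 203 CPM over the 10 markers. These sums lay within the 134 to 211 CPM of re-fed control ASO. Without the 4 high-Arntl libraries the median log2 fold change of the 10 was 0.30, with 8 of 10 positive; Clec4f stood at -0.19 and Marco at -1.19. The part of the clock difference in these values was not tested.

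**Figure D2:**
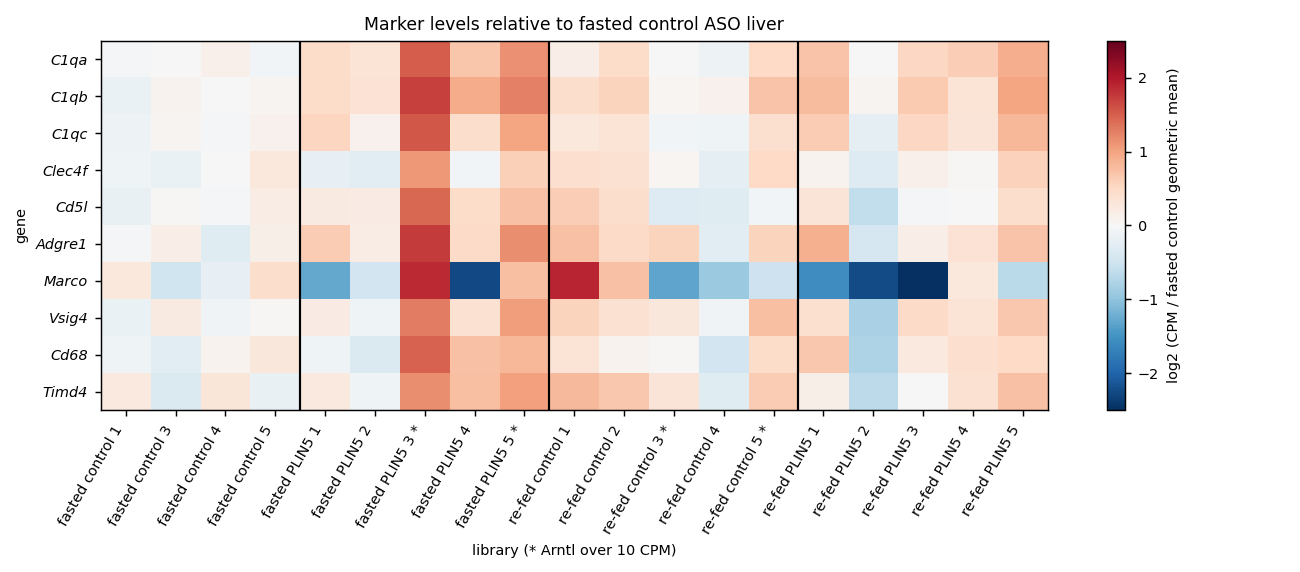
Log2 of CPM over the geometric mean of fasted control ASO, for each marker (rows) in each library (columns, asterisks for the high-Arntl libraries). Fasted PLIN5 ASO 3 and 5 are red for all 10 markers, and the Marco row holds the widest swings.

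PLIN5 ASO against control ASO in re-fed liver asks the same question after food. No marker passed the test there: 0 of 10 were called, against 1.38% of all genes, and 0 of 10 had an unadjusted p under 0.05 (19% of genes); DESeq2 also called 0. The groups overlapped for all 10, where 2.48% of all genes did not overlap with PLIN5 ASO higher and 1.74% with it lower. The median log2 fold change was -0.04, against -0.01 over all genes, and 4 of 10 were positive. C1qa stood at 28.6, 34.9, 25.4, 23.4 and 36.1 CPM with control ASO and at 42.1, 25.5, 36.5, 39.2 and 48.1 CPM with PLIN5 ASO. Library 2 of PLIN5 ASO lay among the controls and the other 4 above them all. The log2 fold change of C1qa was 0.37 (SE 0.20, 95% interval -0.04 to 0.78, edgeR adjusted p = 0.316).

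C1qb and C1qc were less far apart in re-fed liver, with log2 fold changes of 0.21 (SE 0.22, edgeR adjusted p = 0.631) and 0.28 (SE 0.22, edgeR adjusted p = 0.512). C1qb ranged from 18.4 to 29.2 CPM with control ASO and from 18.6 to 35.2 CPM with PLIN5 ASO. Marco had the lowest fold change. It stood at 9.97, 4.43, 1.07, 1.39 and 1.85 CPM with control ASO and at 0.91, 0.57, 0.47, 3.21 and 1.67 CPM with PLIN5 ASO. PLIN5 ASO libraries 1, 2 and 3 lay below every control, while 4 and 5 lay among them, and the log2 fold change was -1.42 (SE 0.71, 95% interval -2.91 to 0.06, edgeR adjusted p = 0.286). Clec4f (-0.11), Cd5l (-0.05), Adgre1 (-0.02), Vsig4 (-0.10), Cd68 (0.18) and Timd4 (-0.27) had log2 fold changes closer to 0, and re-fed PLIN5 ASO 2 was the lowest of all 19 libraries for these 6 and for C1qc.

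Re-fed against fasted liver asks what a meal of 4 h changed. With control ASO, 0 of 10 markers passed, against 13.2% of all genes, by edgeR and by DESeq2, and 0 of 10 had an unadjusted p under 0.05 (28.8% of genes). All 10 log2 fold changes were positive, from 0.11 (Cd68) to 0.45 (Timd4), with a median of 0.31 against 0.03 over all genes. The groups overlapped for all 10, where 7.15% of all genes lay apart with re-fed higher and 9.12% with re-fed lower. C1qb had the smallest edgeR adjusted p, 0.288, at a log2 fold change of 0.39 (SE 0.23).

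With PLIN5 ASO, 0 of 10 passed by edgeR or DESeq2, against 8.64% of all genes, and 1 of 10, Cd5l, had an unadjusted p under 0.05 (23.5% of genes). All 10 log2 fold changes were negative, from -0.20 (Clec4f) to -1.36 (Marco), with a median of -0.40 against 0.00 over all genes. Cd5l stood at 42.7, 22.3, 33.3, 34.5 and 46.0 CPM in re-fed PLIN5 ASO, where the fasted libraries held 39.5 to 91.9 CPM. Re-fed libraries 2, 3 and 4 lay below every fasted one, with a log2 fold change of -0.62 (SE 0.24, edgeR adjusted p = 0.114). Re-fed and fasted groups overlapped for all 10, while 3.94% of all genes lay apart upward and 3.63% downward. The direction rested on fasted PLIN5 ASO 3 and 5: without the high-Arntl libraries the median was 0.09, with 7 of 10 positive. The 2 feeding comparisons share their groups with the ASO comparisons, so their values are not independent of those above.

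The interaction, the ASO difference in re-fed liver minus that in fasted liver, was negative for all 10 markers, with a median log2 value of -0.74 against -0.02 over all genes. None passed: 0 of 10 were called by edgeR, against 0.0226% of all genes, and 0 by DESeq2. At an unadjusted p under 0.05 were 4 of 10 (C1qb, Cd5l, Adgre1 and Timd4), against 15% of genes. C1qb stood at -0.82 (SE 0.32, edgeR adjusted p = 0.268) and Adgre1 at -0.97 (SE 0.40, edgeR adjusted p = 0.277). A difference of the ASO effect between feeding states was therefore not shown for any marker. Without the high-Arntl libraries the median was -0.27.

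**Figure D3:**
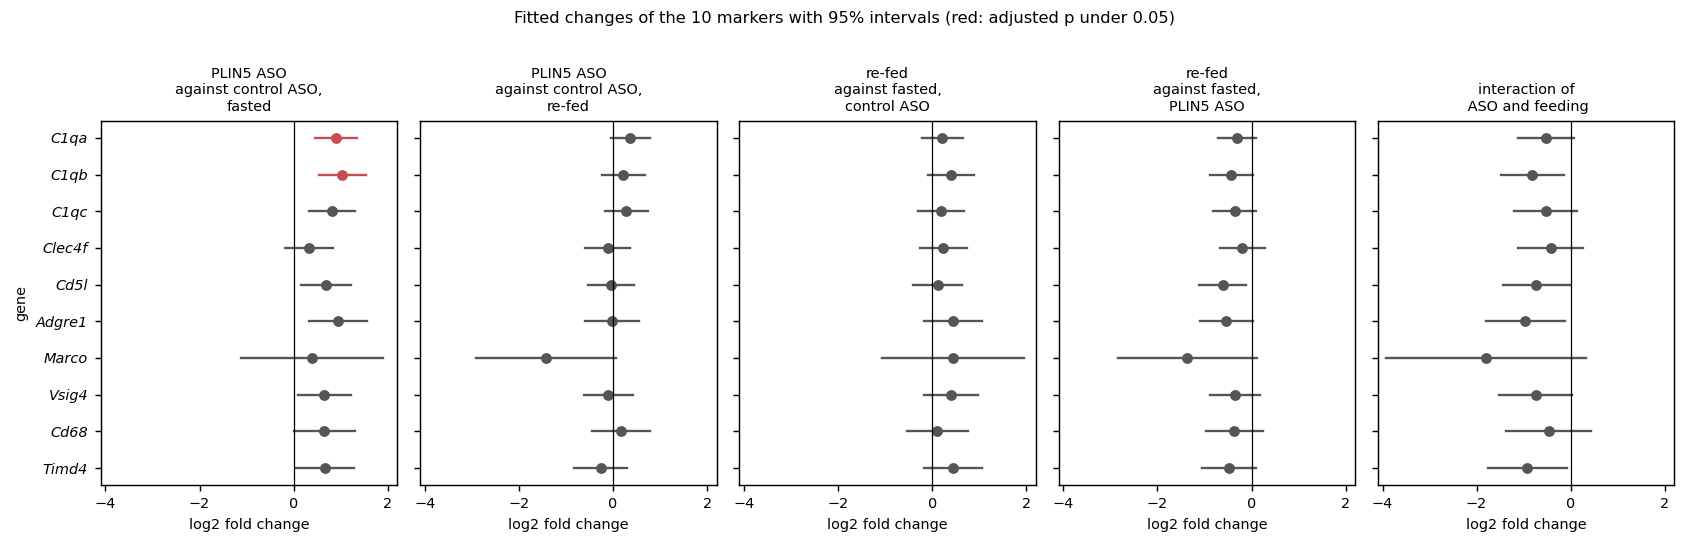
Fitted log2 fold change (x axis) with its 95% interval for each marker (rows) in the 4 pairwise comparisons and the interaction. C1qa and C1qb in fasted liver, in red, are the 2 values with an edgeR adjusted p under 0.05, and Marco has the widest intervals.

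The order of the groups differed between markers. Fasted PLIN5 ASO had the highest mean for 9 of the 10, and for C1qa, C1qb, C1qc and Cd68 re-fed PLIN5 ASO came next, while for Clec4f, Cd5l, Adgre1, Vsig4 and Timd4 it was re-fed control ASO. By median, however, Clec4f was lowest in fasted PLIN5 ASO, at 32.3 CPM. Its medians were 32.8 in fasted control, 36.3 in re-fed PLIN5 and 44.2 CPM in re-fed control ASO. For C1qa the means were 47.5 in fasted PLIN5 ASO, 38.3 in re-fed PLIN5 ASO, 29.7 in re-fed control ASO and 25.6 CPM in fasted control ASO. Of these neighbours, re-fed PLIN5 ASO and re-fed control ASO differed by 8.59 CPM, just over the larger SD of 8.32 CPM, and the other neighbours by less than theirs. For Clec4f, the means of 42.7, 40.3, 37.2 and 34.2 CPM (fasted PLIN5, re-fed control, re-fed PLIN5 and fasted control ASO) held no neighbours that differed by more than the larger SD. The same was true of C1qc, Cd5l, Adgre1, Vsig4, Cd68 and Timd4. For C1qb, re-fed and fasted control ASO differed by 5.55 CPM (larger SD 4.62 CPM). For Marco, fasted control and re-fed PLIN5 ASO differed by 1.39 CPM (larger SD 1.13 CPM).

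The ratio of C1q genes to Clec4f, both macrophage products, separated the fasted ASO groups without passing the adjusted test. The log2 ratio, with 0.5 CPM added to each gene, was tested for C1qb over each of the 7 markers that are not C1q chains; the ratios printed below are without that addition. C1qb over Clec4f stood at 0.501, 0.623, 0.527 and 0.460 in fasted control ASO and at 0.831, 0.816, 0.811, 1.05 and 0.839 in fasted PLIN5 ASO. In re-fed liver it stood at 0.534, 0.593, 0.523, 0.660 and 0.610 with control ASO and at 0.853, 0.686, 0.757, 0.647 and 0.697 with PLIN5 ASO. The fasted groups did not overlap, and in re-fed liver PLIN5 ASO 4 lay just below control ASO 4. C1qb had the largest and Clec4f the smallest log2 fold change of the 10 in fasted liver (1.03 and 0.32). The separation of their ratio there is therefore not independent of those values. The log2 ratio was higher with PLIN5 ASO by 0.71 in fasted and by 0.31 in re-fed liver (exact permutation test, two-sided, p = 0.0159 each; 0.111 after Benjamini-Hochberg adjustment over 28 tests).

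None of the 28 ratio tests passed after adjustment, in a design whose smallest p is 0.0159 for 4 against 5 libraries and 0.00794 for 5 against 5. The fasted tests count fasted control ASO 3 and 4 as separate libraries, though that pair differed less than any other within a group. In fasted liver C1qb over Cd5l and over Vsig4 also did not overlap, with log2 differences of 0.33 and 0.39 (exact permutation p = 0.0159, adjusted 0.111, for each). C1qb over Adgre1 differed by 0.17 in fasted liver (exact permutation p = 0.254, adjusted 0.395). Without the high-Arntl libraries the difference for Clec4f was 0.75 in fasted and 0.28 in re-fed liver (exact permutation p = 0.0571 and 0.0714, adjusted 0.25 each). With each library's trend along transcript length taken out it was 0.74 and 0.22; the Clec4f transcript has 2471 bases and that of C1qb 1088.

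C1qa in place of C1qb, tried after the values were seen, separated the ASO groups in both feeding states. C1qa over Clec4f ranged from 0.595 to 0.831 in the 9 control ASO libraries and from 0.941 to 1.27 in the 10 PLIN5 ASO libraries. The log2 differences were 0.59 in fasted (exact permutation p = 0.0159) and 0.47 in re-fed liver (exact permutation p = 0.00794), each the smallest p possible there and each 0.0889 after adjustment over 28 tests. C1qc over Clec4f had log2 differences of 0.49 in fasted and 0.36 in re-fed liver (exact permutation p = 0.0159 each, adjusted 0.0889). The fasted p-values again count fasted control ASO 3 and 4 as separate libraries. Each adjustment covers the 28 tests of a single chain. It does not allow for the choice of chain after the values were seen, so these adjusted values understate the search.

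**Figure D4:**
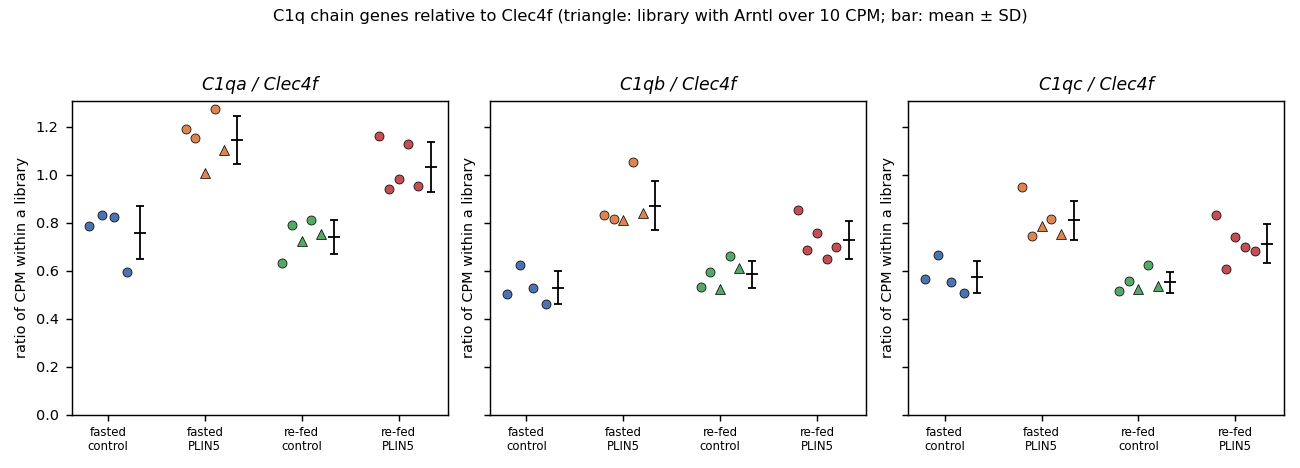
CPM of C1qa, C1qb and C1qc over that of Clec4f in the same library, by group (x axis), with mean ± SD and triangles for the high-Arntl libraries. For C1qa every PLIN5 ASO library lies above 0.94 and every control ASO library below 0.84.

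The 10 markers varied together between libraries of a group. After group means were removed, Pearson correlations of log2 CPM over 19 libraries were 0.738 to 0.947 for the 36 pairs without Marco and 0.497 to 0.756 for the 9 pairs with it; the points share libraries and depth, and no test was made. C1qb and C1qc were the closest pair. Over all 19 libraries Marco ranged 21.2-fold, and the others from 2.66-fold (Clec4f) to 4.72-fold (Cd68). The genes outside the 10 most like their mean profile were Csf1r (r = 0.968), the receptor for macrophage growth factor CSF1, Sdc3 (0.967), Ctss (0.964), Lyz2 (0.952), Lgmn (0.940), Ly86 (0.925), Laptm5 (0.922) and Axl (0.911). Ctss and Lgmn encode lysosomal proteases and Lyz2 a lysozyme.

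Other Kupffer cell and macrophage lists gave few calls in fasted liver. Of 16 further Kupffer cell genes 2 rose with PLIN5 ASO and 0 fell, with a median log2 fold change of 0.37: Vcam1, an adhesion molecule (1.19, edgeR adjusted p = 0.0334), and Il18bp, which binds interleukin 18 (0.77, edgeR adjusted p = 0.0345). Fold changes were positive for 13 of the 16, while Id3 stood at -1.46 (SE 0.37, edgeR adjusted p = 0.0583). The 16 summed to 962 to 1043 CPM with control ASO and to 1046 to 1107 CPM with PLIN5 ASO, highest in library 1. Of 19 macrophage lineage genes Ctss alone rose (1.41, edgeR adjusted p = 0.0258), at a list median of 0.61. Of 10 genes of lipid-associated macrophages 0 were called (median 0.40); Gpnmb stood at 1.92 (SE 0.75, edgeR adjusted p = 0.224). Of 10 genes of the signals that form the Kupffer cell niche 1 fell, Dll4, a Notch ligand of sinusoidal endothelium (-1.29, edgeR adjusted p = 0.0258). Of 11 other complement genes C4bp, an inhibitor of the classical pathway made by hepatocytes, rose (0.36, edgeR adjusted p = 0.0398). With fasted control ASO 3 and 4 as 1 sample none of the 5 genes called here passed (edgeR adjusted p of 0.0601 to 0.111). Without the high-Arntl libraries Dll4 alone of the 5 did (-1.50, edgeR adjusted p = 0.0354).

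In the other comparisons the calls in these lists were scattered. In re-fed liver C2, which encodes a protease of the classical pathway, fell with PLIN5 ASO (-0.44, edgeR adjusted p = 0.0166), and 0 of the 16, 19, 10 and 10 genes of the other lists were called. Re-feeding with control ASO raised C6 (1.12, edgeR adjusted p = 0.0284) and Fabp5 (2.15, edgeR adjusted p = 0.0364) and lowered Hpgd (-1.01, edgeR adjusted p = 0.0448). These were 2 of 16 further Kupffer cell genes and 1 of 10 genes of lipid-associated macrophages. As 13.2% of all genes were called there, calls were no more frequent in these lists. Re-feeding with PLIN5 ASO raised Id3 (1.27, edgeR adjusted p = 0.0297) and Dll1 (0.71, edgeR adjusted p = 0.0387) and lowered 3 of 11 complement genes, C2, C3 and C4b. With fasted control ASO 3 and 4 as 1 sample C6, Fabp5 and Hpgd did not pass (edgeR adjusted p of 0.0916, 0.102 and 0.108). Without the high-Arntl libraries, of the genes named here only Id3 and, on re-feeding with PLIN5 ASO, C2 passed (edgeR adjusted p of 0.0218 and 0.0273). In the interaction 0 genes of these lists passed.

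Levels of markers of other cells and of inflammation in fasted liver are given beside those of the 10. The summed level of 13 monocyte and neutrophil markers was 6.78 to 7.79 CPM with control ASO and 7.99 to 14.8 CPM with PLIN5 ASO, highest in library 3; 7 of the 13 passed the filter on low counts, 0 were called, and S100a8, Retnlg, Cxcr2, Chil3, F13a1 and Mpo had 0 reads in at least 1 library. The 12 stellate cell and fibroblast markers summed to 139 to 176 CPM and 177 to 273 CPM, and 3 of 12 rose (Col1a2, Col3a1 and Lum, with log2 fold changes of 1.06, 1.15 and 1.10 and edgeR adjusted p of 0.0258, 0.0333 and 0.0275). None of the 3 passed with fasted control ASO 3 and 4 as 1 sample (edgeR adjusted p of 0.0691 to 0.0841) or without the high-Arntl libraries (0.127 to 0.153). The 12 liver endothelial markers summed to 160 to 212 CPM and 146 to 207 CPM, with 0 called. Lymphocyte markers summed to 5.94 to 7.60 CPM and 5.53 to 11.8 CPM (0 of 9 called), and cholangiocyte markers to 36.4 to 42.7 CPM and 38.1 to 70.2 CPM (0 of 6 called).

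Of 10 acute phase genes, which hepatocytes switch on in inflammation, 6 rose in fasted PLIN5 ASO liver and 7 fell on re-feeding with PLIN5 ASO. Saa1 stood at 46.5 to 152 CPM in fasted control ASO and at 4170, 40.6, 4860, 121 and 2174 CPM in fasted PLIN5 ASO 1 to 5. Lcn2 stood at 6.12 to 8.25 CPM and at 332, 10.1, 540, 25.5 and 222 CPM. Libraries 1, 3 and 5 were high in both genes. Libraries 3 and 5 were also the highest of the 5 for all 10 markers, and library 2 was the lowest in Saa1, Lcn2 and C1qb. Library 1 held less C1qb than library 4 (24.6 and 34.0 CPM), and also less C1qa, Clec4f, Cd5l, Vsig4, Cd68 and Timd4. It held more C1qc (28.1 and 26.3 CPM), Adgre1 and Marco. With fasted control ASO 3 and 4 as 1 sample 1 of the 6 calls in fasted liver remained (Lcn2), and without the high-Arntl libraries 2 of 6 (Saa2 and Lcn2); of the 7 on re-feeding, 4 remained without them. The part of these other genes in the levels of the 10 markers was not tested.

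**Figure D5:**
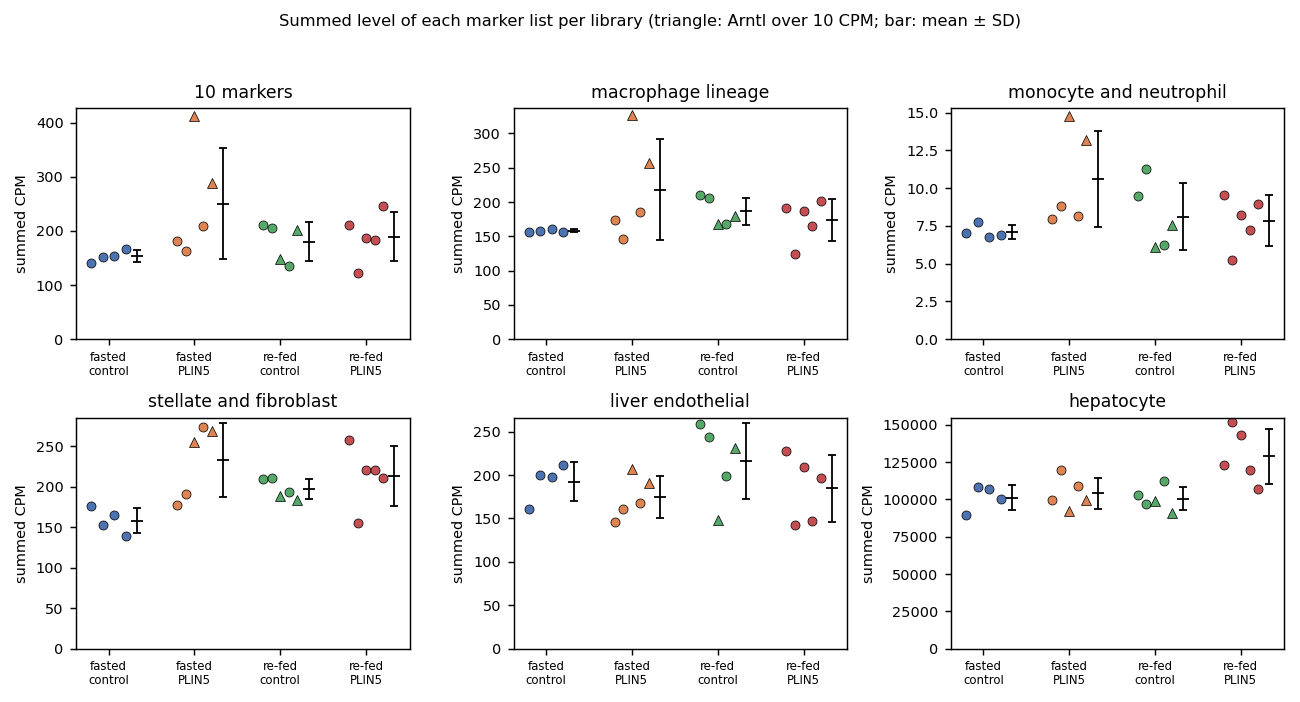
Summed CPM of 6 marker lists (panels) in every library, by group (x axis), with mean ± SD and triangles for the high-Arntl libraries. Fasted PLIN5 ASO 3 leads the panels of the 10 markers (412 CPM), of the macrophage lineage (327 CPM) and of monocytes and neutrophils (14.8 CPM), while the hepatocyte panel is highest in re-fed PLIN5 ASO. The further Kupffer cell genes have no panel, and their sum was highest in re-fed control ASO 5 (1189 CPM).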

How the data were processed

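Liver RNA of 19 mouse libraries was extracted with an RNeasy kit and made into Illumina libraries, per the labels' protocols. Subread, edgeR, FastQC, HISAT2 2.0.2 and Cuffdiff 2.2.1 are named, with builds GRCm38 and mm10, in the submitters' processing notes, without roles. The authors deposited raw read counts per gene symbol (24421) and FPKM per gene symbol (24347). Not given in the sources used here are the annotation, the strand setting and the handling of reads that match more than 1 gene.

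From the counts, edgeR 4.0.16 (R 4.3.3) was run with TMM scaling, filterByExpr by group (minimum count 10), a mean per group over all 19 libraries and two-sided quasi-likelihood tests of 5 comparisons, adjusted by Benjamini-Hochberg over 13293 genes at 0.05. Levels are CPM on TMM-scaled libraries. Exact permutation tests (numpy 2.4.6, pandas 2.3.3) compared log2 ratios of C1qb to 7 other markers after adding 0.5 CPM. The deposited FPKM gave levels per length and, with 1 or 0.1 added before taking logs, an alternative with limma 3.58.1. The edgeR script was tested on simulated data. Positions and lengths came from GENCODE M21 on GRCm38, and promoter windows from RefSeq on GRCm38.p6. Depth, at 24.9 to 66.9 in units of 1e6 counts, left the marker with the fewest reads in any library, Marco, at 13.

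The members, lists, motifs and rules were chosen with earlier results of these data known. The genes named outside the 10 markers are, for each list, up to 4 with the smallest unadjusted p in the fasted ASO comparison and up to 2 in each other comparison, and the 8 most like the markers among genes with a mean of at least 1 CPM. Plin5, Arntl, Saa1 and Lcn2 give context. A result that meets this rule is not reported here. Alternatives were RLE size factors, no filter or a stricter filter (1 CPM in 4 libraries), DESeq2 1.42.0, the groups compared alone, a replicate block, FPKM with limma (mean of at least 0.5 or no filter), and leaving out each library. Some alternatives were chosen after seeing the data: C1qa or C1qc in place of C1qb, length trends removed in 25 bins, the 4 libraries with Arntl over 10 CPM left out, and fasted control ASO libraries 3 and 4 taken as 1 sample.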

Additional observations from a re-analysis of the deposited data

Results flagged for a closer look

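The ratio of C1qb to Clec4f in fasted PLIN5 ASO 4 stood at 1.05, far from the 0.811 to 0.839 of the other 4 libraries of that group. The gap to the nearest library was 0.883 of the group's range, above Dixon's 95% critical value of 0.71 for 5 samples. It was the single such value among 52 groups tested, where chance gives about 1 in 20. In the same library C1qb held 33.6% of summed C1q FPKM, the highest share of the 19, and Marco stood at 0.56 CPM, the lowest of its group.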

How the results depend on the processing

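The number of the 10 markers called in the fasted ASO comparison was 2. It was 4 with DESeq2 and 0 with only the 2 groups compared, with each of the 3 FPKM settings, with fasted control ASO 3 and 4 as 1 sample, without the high-Arntl libraries and with the length trend taken out; leaving out 1 library gave 0 to 3. Without fasted control ASO 1, 3, 4 or 5 or fasted PLIN5 ASO 3, 4 or 5 it was 0, and without re-fed control ASO 1 or re-fed PLIN5 ASO 1, 3 or 4 it was 1. In the other 4 comparisons 0 markers were called under every alternative run. The median log2 fold change of the 10 in the fasted ASO comparison was 0.30 without the high-Arntl libraries and 0.48 without fasted PLIN5 ASO 3. Leaving out the high-Arntl libraries took it to 0.087 for re-feeding with PLIN5 ASO and to -0.27 for the interaction. Genes called numbered 156 in the fasted ASO comparison, and 432 with DESeq2, 70 with FPKM and no filter, and 33 with control 3 and 4 as 1 sample (22 to 188 without 1 library). They numbered 183 in the re-fed one, and 612 with DESeq2, 4 with the 2 groups alone, 45 without the high-Arntl libraries and 52 with the length trend taken out (45 to 341). For re-feeding with control ASO they numbered 1759, and 1127 with control 3 and 4 as 1 sample and 1167 without the high-Arntl libraries (1112 to 2014); with PLIN5 ASO they numbered 1148 (741 to 1232). For the interaction they numbered 3, and 95 with DESeq2 and 0 with no filter, with FPKM, with control 3 and 4 as 1 sample and with the length trend taken out (0 to 3). The causes were not tested. No ratio of C1qb to another marker passed under any of 8 alternatives or without any library, but some of these runs could not pass. With libraries paired by replicate number, the smallest possible exact permutation p was 0.125 for 4 pairs and 0.0625 for 5 pairs. Without the high-Arntl libraries, too few fasted libraries were left to reach the threshold. Such runs therefore do not bear on whether the ratios differ. Of 27 same-numbered pairs of libraries from different groups, 10 correlated above 0.1 (range -0.212 to 0.375). Pairs with different numbers were not compared, so these values do not show whether replicate numbers pair the libraries. With the replicate block 253, 290 and 1 genes were called in the fasted ASO, re-fed ASO and interaction tests, and C1qc passed with an adjusted p of 0.0485 (range 0.0218 to 0.403 over its alternatives). With 13 reads in its lowest library, Marco is the marker that depth limits most, and 4 or 5 libraries a group limit the ratio tests.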
